A study of Mus musculus with 83 samples.

Results

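The libraries described here are the 15 control libraries of a small RNA-seq time course in mouse embryonic stem cells (ESCs), chosen by their labels as the control samples of days 1, 3, 6, 9 and 11 that carry no R1 suffix, out of 83 libraries in the whole series. Each day had 3 libraries, which the submitters count as biological replicates. The study deleted Dnmt1, the maintenance DNA methyltransferase, and sampled deleted and control cells in parallel. The labels give the control cells as ESC, background strain E14, genotype Wildtype, while the methods describe a C57BL/6 Dnmt1 loxP/loxP line in which Cre was induced by 4OHT, a tamoxifen metabolite. Whether the control cells carried the loxP alleles, or received 4OHT, is not stated in the sources used here, and days are counted as the labels give them. The methods give culture in serum and LIF, with or without feeder cells, and do not say which applied to these libraries. No date, lane or batch is given in the labels used here, so time in culture and the handling of a day's 3 libraries cannot be told apart in any comparison that follows, and each p-value measures the spread between the libraries of a day.

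MicroRNAs (miRNAs) are made from hairpin transcripts that DROSHA with DGCR8 and then DICER cut to the mature strand, which AGO proteins carry to target mRNAs. Targets are chosen largely by the seed, bases 2 to 8 of the mature miRNA, so hairpins from different clusters with the same seed can act on the same mRNAs. In mouse ESCs the miR-290-295 cluster is the dominant ESC-specific cluster, while the miR-302-367 cluster is typical of the primed, post-implantation state. The miR-17-92, miR-106a-363 and miR-106b-25 clusters are related by duplication and are abundant in dividing cells, and let-7 accumulates as cells differentiate.

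Mature sequences of the clusters on which the results turn are shown here because they share seeds across clusters that took different courses over the 11 days. They were taken from RefSeq (GRCm38.p6), and the capitals mark the seed, bases 2 to 8. Members of miR-302-367, which were lower than day 1 on every later day:
miR-302b-3p: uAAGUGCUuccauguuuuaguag
miR-302c-3p: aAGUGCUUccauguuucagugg
miR-302d-3p: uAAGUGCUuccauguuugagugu
miR-367-3p: aAUUGCACuuuagcaaugguga
Members of miR-290-295, most of which held their level, among them miR-291b, which rose:
miR-291a-3p: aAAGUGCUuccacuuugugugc
miR-291b-3p: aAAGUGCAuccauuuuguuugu
miR-294-3p: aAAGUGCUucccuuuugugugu
miR-295-3p: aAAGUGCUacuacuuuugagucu
Members of miR-106a-363, which were lower on day 11:
miR-106a-5p: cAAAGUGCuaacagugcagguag
miR-18b-5p: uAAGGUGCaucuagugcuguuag
miR-20b-5p: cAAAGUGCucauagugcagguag
miR-363-3p: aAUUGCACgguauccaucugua
Their counterparts from miR-17-92 and miR-106b-25:
miR-17-5p: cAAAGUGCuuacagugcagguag
miR-18a-5p: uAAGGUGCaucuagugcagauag
miR-93-5p: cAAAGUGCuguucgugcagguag
miR-92a-3p: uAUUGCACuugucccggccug
miR-25-3p: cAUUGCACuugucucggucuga
miR-302b-3p and miR-302d-3p thus carry the same seed as miR-291a-3p, miR-294-3p and miR-295-3p. miR-367-3p and miR-363-3p carry the seed of miR-92a-3p and miR-25-3p. miR-92a-3p is the mature sequence of both Mir92-1 and Mir92-2.

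Library totals read back from the deposited values ran from 870481 (day 1, replicate 3) to 5668458 (day 9, replicate 2). Levels are in RPM, the reads of a feature scaled to a library of 1000000, so 10 RPM stood for 8.70 to 56.7 reads. They are printed as scaled RPM, which is RPM after a scaling factor per library, and changes as log2 fold changes on log2(RPM + 1), which understates the change of weakly detected features. The filter kept 1987 of 32101 annotated features, 260 of them miRNAs. The most abundant feature was Mir182, with 16.6% of the reads on average, followed by the ESC miRNA Mir295 with 6.82%. The 7 hairpins of the ESC cluster miR-290-295 together reached 117444 to 120145 scaled RPM on day 1 and 120309 to 124308 on day 11. The defining miRNAs of neurons and muscle were weak, and those that failed the filter stayed at or under 2.84 scaled RPM for neurons and 9.78 for muscle. Of the neural list only Mir219-1, annotated at 2 overlapping positions, passed, and of the muscle list only Mir499.

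Every later day differed from day 1 in many features (the plot of features called per day). A feature was called where the Benjamini-Hochberg adjusted p of the limma test was under 0.05. On day 3, 566 features were called, 28.5% of those tested, with 295 higher (14.8%) and 271 lower (13.6%). Day 6 gave 873 (43.9%), with 411 higher (20.7%) and 462 lower (23.3%). Day 9 gave 699 (35.2%), with 388 higher (19.5%) and 311 lower (15.7%). Day 11 gave 1017 (51.2%), with 456 higher (22.9%) and 561 lower (28.2%). These splits moved with the scaling. Under library totals alone there were 349 higher against 211 lower for day 3, 309 against 594 for day 6, 338 against 371 for day 9 and 489 against 517 for day 11, and the median over all features on day 6 was -0.17 in place of -0.07.

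The miRNAs were called more often than features as a whole. Of the 260 tested, 93 were called on day 3 (35.8%), with 27 higher and 66 lower (25.4%). Day 6 gave 141 (54.2%), with 58 higher and 83 lower (31.9%). Day 9 gave 117 (45%), with 69 higher and 48 lower (18.5%). Day 11 gave 166 (63.8%) and leaned to the lower side, with 29 higher and 137 lower (52.7%) and a median of -0.39 against -0.04 over all features. That lean was measured on a scaling over all features tested. The miRNA share of the library was 57.5% on day 1 and 57.1% on day 11. When the scaling was computed on the miRNAs alone, day 11 had 73 higher and 73 lower, with a median of -0.05. Such a scaling centres the miRNAs' own changes near 0, so a near-even split is largely built in. It cannot show what the lean was relative to. The same scaling gave 56 higher and 58 lower for day 9. The outcome on the miRNA scaling is given below for several lists, and calls of other lists and days also shifted under it.

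**Figure D1:**
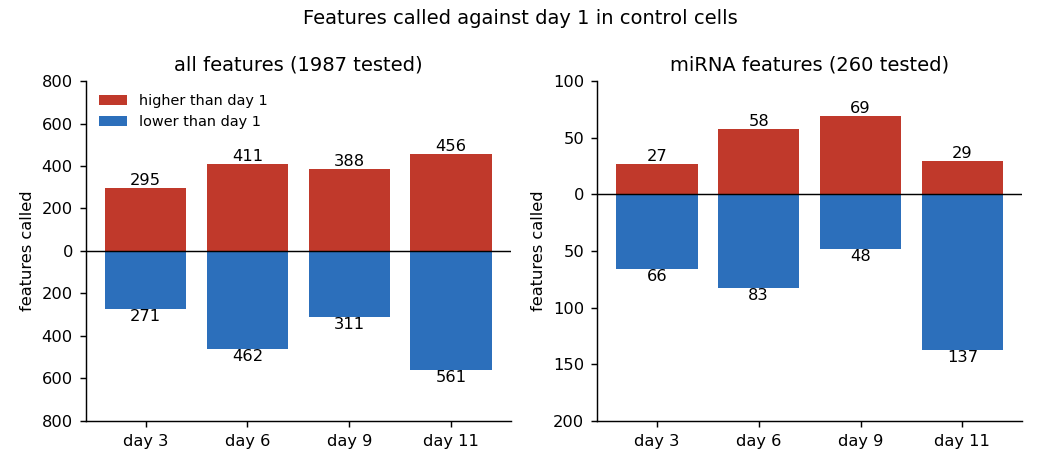
Number of features called against day 1 (vertical axis, limma, adjusted p under 0.05) on days 3, 6, 9 and 11 (horizontal axis) in control cells, for all 1987 features tested (left) and the 260 miRNA features (right). Bars above 0 count features higher than day 1 and bars below 0 those lower. The miRNA bars lean down on day 11, with 137 lower and 29 higher.

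The course over the days was seldom a steady one. A test of any difference among the 5 days called 1427 features (71.8%) and 228 miRNAs (87.7%). Only 29 of the 1427 had day means that rose at every step and 18 had means that fell at every step. Among the 228 miRNAs no mean rose at every step and 7 fell at every step. The highest mean of these 228 lay most often on day 9 (77), day 6 (69) or day 1 (60), and on day 3 or day 11 in 11 each. The lowest mean lay on day 11 in 111 and on day 6 in 59. A linear slope over days was called in 339 features (17.1%), 206 rising (10.4%) and 133 falling (6.69%), and in 53 miRNAs (20.4%), 13 rising (5%) and 40 falling (15.4%). The count for the slope rested in part on day 1 replicate 3, the shallowest library, without which it was 210.

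In a principal component analysis the first component held 37.6% of the variance. It set day 1 (scores -16.3 to -13.6) at one end and day 11 (17.9 to 18.9) at the other. Day 9 lay at -7.30 to -3.14, between day 1 and the libraries of days 3 and 6, so the order along this component was not the order of the days. The second component (18.3%) set days 6 and 9 apart from days 1 and 11, and the third (13.7%) set day 6 (mean score -8.89) apart from day 9 (mean score 10.7). The day 1 libraries were spread on the second component (-13.8 to -6.02), where they overlapped day 11 (-6.87 to -5.39), and on the third (-7.16 to -0.860). The median within-day SD over the miRNAs was 0.16 log2. The 3 libraries of a later day did not overlap those of day 1 in 36.9% of all features on day 3, 47.1% on day 6, 44.8% on day 9 and 55% on day 11, which is the background for each such statement below.

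The largest change was in miR-302-367, a cluster of 5 hairpins at chr3:127248146-127248725 (NCBIM37, plus strand) inside the gene Larp7. All 5 were lower than day 1 on each later day. Mir302a stood at 390, 372 and 396 scaled RPM in the 3 libraries of day 1, at 222, 190 and 205 on day 3, at 215, 187 and 195 on day 6, at 184, 126 and 133 on day 9 and at 40.4, 30.4 and 27.2 on day 11. The libraries of day 1 lay above all others and those of day 11 below all others, while days 3 and 6 overlapped. The 4 log2 changes of Mir302a were -0.91, -0.96, -1.40 and -3.54 (SE 0.13), with adjusted p-values of 2.88e-06, 7.08e-07, 1.11e-09 and 1.91e-18.

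The rest of the cluster took the same steps. Mir302d read 443, 366 and 432 scaled RPM on day 1 and 61.7, 38.7 and 38.9 on day 11, a change of -3.16 (SE 0.15, adjusted p = 1.44e-16). Mir302b went from 203, 163 and 204 scaled RPM to 22.6, 25.8 and 21.6, a change of -2.97 (SE 0.13, adjusted p = 2.59e-17). The minor members were closer to the detection limit. Mir302c fell by 2.93 and Mir367 by 3.11 on the log2 scale, each to between 2.40 and 4.38 scaled RPM, where 3 reads stand for 0.715 to 1.24 RPM in the day 11 libraries. Mir302a and Mir302b share a stretch of sequence and could share reads. A shared stretch here is a run of bases found in both features on either strand, and identity over the whole length was not computed.

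As a list, miR-302-367 had medians of -0.69, -0.87, -1.30 and -3.11 on days 3, 6, 9 and 11, against -0.03, -0.07, -0.03 and -0.04 over all features and -0.11, -0.07, 0.06 and -0.39 over all miRNAs. On the miRNA scaling the day 11 median was -2.82 with all 5 still lower, and on day 3 the number lower was 4. The summed level of the cluster dropped from 1061 ± 85.3 (SD, n = 3) scaled RPM on day 1 to 618 ± 33.3, 606 ± 28.8 and 431 ± 88.8 on days 3, 6 and 9 and to 110 ± 21.2 on day 11. All 5 also had a falling slope. Reads in Larp7 outside the hairpins averaged between -1.37 and 1.76 scaled RPM a day, so the libraries hold almost no fragments of the host gene to set beside the cluster. Values under 0 mean that the hairpins together were given more than the gene that holds them, and the reason was not tested.

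The X-linked cluster miR-106a-363, 6 hairpins at chrX:50094870-50095744 (minus strand), was lower in 5 hairpins on day 3, 4 on day 6, 5 on day 9 and all 6 on day 11. Its medians were -0.47, -0.42, -0.59 and -1.80 on the log2 scale. Mir106a, a paralogue of Mir17, read 790, 754 and 824 scaled RPM on day 1, against 596, 560 and 558 on day 3, then 558, 554 and 608 on day 6, next 554, 526 and 486 on day 9 and finally 210, 190 and 199 on day 11. The step from day 9 to day 11 exceeded all the earlier steps. The day 11 change was -1.98 (SE 0.08, adjusted p = 1.31e-17).

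Mir363, from the other end of the cluster, read 2885, 3036 and 2947 scaled RPM on day 1 and 1709, 1622 and 1619 on day 9. On day 11 it read 781, 811 and 873, a change of -1.85 (SE 0.08, adjusted p = 1.42e-17). Mir18b changed by -2.08 (SE 0.11, adjusted p = 2.36e-15) and Mir20b by -1.35 (SE 0.08, adjusted p = 8.02e-14) on day 11. In between, Mir20b had a difference of -0.16 on day 6 (adjusted p = 0.104) and the low-level Mir19b-2 of -0.06 (adjusted p = 0.842). All 6 hairpins remained lower on day 11 on the miRNA scaling, with a median of -1.45.

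**Figure D2:**
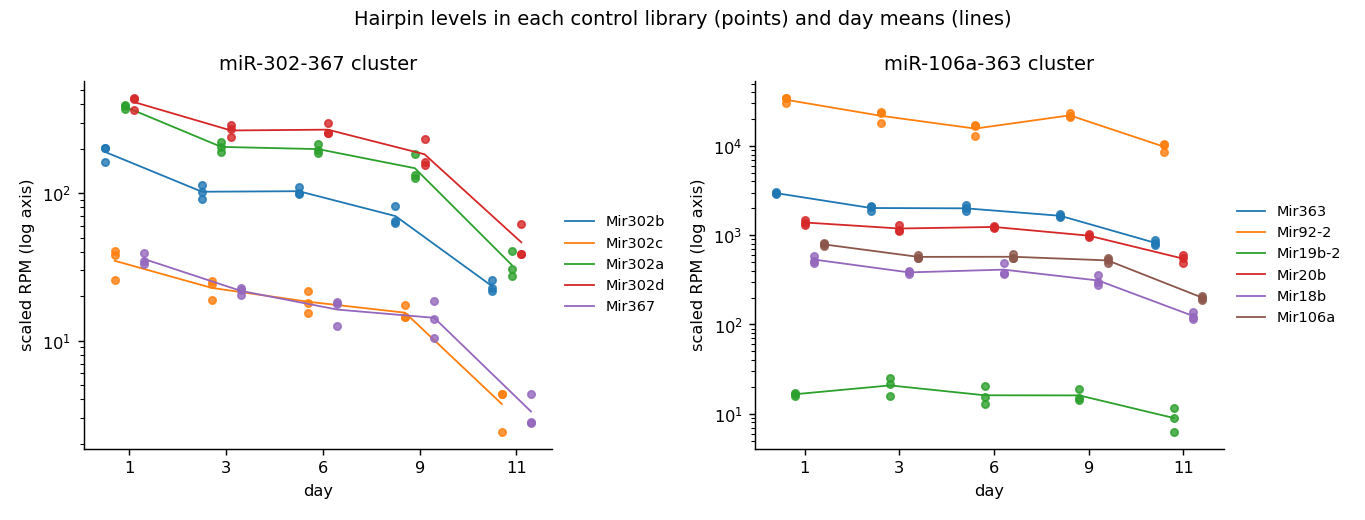
Level of each hairpin of miR-302-367 (left) and miR-106a-363 (right) in scaled RPM on a log axis (vertical) against day (horizontal) in control cells. Points are single libraries, 3 a day, and lines join the day means. Mir302a drops from 372 to 396 on day 1 to 27.2 to 40.4 on day 11, and Mir106a from 754 to 824 to 190 to 210.

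Most hairpins of miR-290-295 at chr7:3218627-3220842 stayed near their day 1 level. Mir295, the most abundant, read 68494, 70838 and 69318 scaled RPM on day 1 and 67487, 71398 and 69966 on day 11, a difference of 0.00 (SE 0.06, adjusted p = 0.988). Mir294 read 3676, 3534 and 4135 on day 1 and 4222, 4337 and 3926 on day 11, a difference of 0.14 (SE 0.08, adjusted p = 0.147). On day 3 Mir294 was called lower (-0.30), with a day mean of 3071 against 3782 on day 1. The list medians were 0.00, -0.06, 0.10 and 0.00 on the 4 days.

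Of the 7 hairpins, 2 were higher on each later day, and 2, 1, none and 1 were lower. Mir291b was higher than day 1 on every later day, Mir293 on days 3 and 6 (0.30 and 0.29) and Mir292 on days 9 and 11 (0.25 and 0.24). Mir291b read 1626, 1601 and 1294 scaled RPM on day 1, against 2178, 2383 and 2415 on day 3, then 3108, 3201 and 2915 on day 6, next 2462, 2459 and 2751 on day 9 and finally 2573, 2642 and 2784 on day 11. No later library overlapped day 1, and day 6 was the highest. The changes were 0.63 (adjusted p = 5.94e-07), 1.03 (3.84e-11), 0.77 (1.61e-08) and 0.83 (1.33e-09), each with an SE of 0.08. Its neighbour Mir291a, with which it shares sequence, was slightly lower on day 3 (-0.20, adjusted p = 0.0174) and day 11 (-0.23, adjusted p = 0.00324). Scaled on the miRNAs, 6 of the 7 hairpins were higher on day 11 and none lower, against 2 higher and 1 lower in the main scaling.

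Several hairpins of the autosomal paralogues of miR-106a-363 went up on day 6 and came back. In miR-17-92 at chr14:115442893-115443728, 4 of 6 hairpins rose on day 6, with a list median of 0.44. Mir17, a promoter of cell-cycle progression, read 1382, 1449 and 1470 scaled RPM on day 1, against 1929, 1909 and 2068 on day 6 and finally 1384, 1293 and 1314 on day 11. The day 6 libraries lay above all others, and the change was 0.46 (SE 0.07, adjusted p = 4.45e-06) on day 6 and -0.11 (adjusted p = 0.202) on day 11. On day 6, Mir20a (0.57), Mir19a (0.63) and Mir18 (0.42) rose with it, and the minor hairpin Mir19b-1 fell by 1.14 on the log2 scale. Mir92-1, the most abundant of the 6, was not called on day 6, with a day mean of 45119 against 42541 on day 1. In miR-106b-25, inside Mcm7, Mir93 (0.36, adjusted p = 2.37e-05) and Mir106b (0.30, adjusted p = 0.00158) rose on day 6 and Mir25 did not pass (0.05, adjusted p = 0.519). On day 11, 1 of the 3 miR-106b-25 hairpins was lower, but on the miRNA scaling 2 were higher and none lower. On the same day, 3 of the 6 miR-17-92 hairpins were lower, among them Mir18 (-0.50), but on the miRNA scaling 2 were higher and 1 lower.

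Summed over the hairpins that carry a seed, the clusters took different courses. These are hairpin levels, in which reads of both arms are counted, while the seed belongs to the arm that carries it. The hairpins with the AAGUGCU seed (Mir291a, Mir294, Mir295, Mir302b and Mir302d) summed to 85156 ± 1148 (SD, n = 3) scaled RPM on day 1 and 83438 ± 2012 on day 11. The sum was 76198 ± 2153 on day 3, 80772 ± 4147 on day 6 and 87124 ± 3260 on day 9. On day 3 all libraries lay below those of day 1, and 4 of the 5 hairpins were lower. Mir302b and Mir302d supplied 190 and 414 of the day 1 sum and Mir295 supplied 69550, so the fall of miR-302 was small beside the summed level of these hairpins. The AAAGUGC seed of Mir17, Mir20a, Mir93, Mir106b, Mir20b and Mir106a summed to 9845 ± 188 on day 1, 11974 ± 241 on day 6 and 7952 ± 296 on day 11. The AUUGCAC seed summed to 89015 ± 4152 on day 1 and 54581 ± 2965 on day 11. Most of that difference lay in Mir92-2, which read 34672, 34060 and 30053 on day 1 and 8613, 10253 and 10460 on day 11 (-1.75, SE 0.10, adjusted p = 2.60e-14). Mir92-1 read 43537, 43551 and 40535 on day 1 and 34124, 37709 and 36966 on day 11 (-0.23, SE 0.07, adjusted p = 0.00749). Both hairpins give miR-92a-3p, and how the counting divided those reads between the 2 is not stated, so the split is uncertain. The miR-18 seed, from Mir18 and Mir18b, summed to 958 ± 74.0 on day 1 and 424 ± 30.1 on day 11. Mir302a is not in these sums.

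A second pattern, with many members lower on day 6 and some higher on day 9, was seen in the hairpins of Dlk1-Dio3, an imprinted locus of chromosome 12 whose maternally expressed transcripts Meg3, Rian and Mirg carry many hairpins. Of 52 listed features, 27 were tested. On day 3, 5 were lower and none higher. On day 6, 25 were lower and none higher, with a median of -0.996. Day 9 had 11 higher and 1 lower, with a median of 0.41. Day 11 had 1 higher and 18 lower, with a median of -0.60. On the miRNA scaling the day 11 counts were 2 higher and 11 lower, with a median of -0.27, while the direction held on days 6 (24 lower) and 9 (8 higher, 2 lower).

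Mir127, which lies antisense to Rtl1 and is the most abundant of the region, read 4907, 5553 and 6303 scaled RPM on day 1, against 2967, 3417 and 3051 on day 3, then 1914, 1947 and 1567 on day 6, next 6114, 4681 and 4806 on day 9 and finally 2734, 2587 and 2402 on day 11. Days 1 and 9 overlapped, and the libraries of the other days lay below both. The changes were -0.82 (SE 0.10, adjusted p = 2.00e-07), -1.63 (3.27e-13), -0.11 (0.437) and -1.11 (2.17e-10). Mir134, a brain-enriched miRNA in adults, had changes of -1.39 (SE 0.14, adjusted p = 7.18e-09) on day 6 and 0.19 (adjusted p = 0.334) on day 9. The feature AC121784.1, which lies in Mirg, fell by 1.54 on day 6 and rose by 0.37 on day 9 (adjusted p = 1.00e-11 and 0.0132). Mir329 was the member higher on day 11, at 0.58, and Mir758 the one lower on day 9, at -0.88; both were chosen after their values were seen. The summed level of the 27 hairpins was 10402 ± 1011 (SD, n = 3) on day 1, 7455 ± 372 on day 3, 4316 ± 406 on day 6, 11313 ± 1617 on day 9 and 5872 ± 258 on day 11.

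Markers of fibroblast, feeder and mesenchymal cells moved on the same days. Of the 9 tested of 13 in the files, 7 were lower on day 6 and none higher, 3 were higher on day 9 and none lower, and 5 were lower on day 11. Over all 260 miRNAs tested, 83 were lower on day 6 (31.9%), 69 higher on day 9 and 137 lower on day 11 (52.7%). The list's counts of days 9 and 11 thus lay near those of miRNAs as a whole. Mir214, expressed with its neighbour Mir199a-2 from the Dnm3os transcript of mesenchymal cells, had day means of 139, 104, 68.3, 212 and 97.0 scaled RPM on days 1, 3, 6, 9 and 11. Mir10a, a Hox-cluster miRNA, had day means of 7219, 5102, 3491, 6445 and 4822, and Mir143, a miRNA of smooth muscle and fibroblasts, 9674, 9697, 7018, 12751 and 10294. The summed level of the list ran from 15897 to 23513 on day 1, 16086 to 16616 on day 3, 10450 to 12898 on day 6, 18819 to 24872 on day 9 and 15874 to 16939 on day 11. The members that passed on both day 6 and day 9 were Mir199a-2, Mir214 and Mir143, and none of the list was higher on day 11. Scaled on the miRNAs, 6 of the list were lower on day 6 and 2 higher on day 9, and on day 11 none was lower and 2 were higher. In bulk libraries a smaller number of such cells and less of the RNA per cell cannot be told apart, and the part of these cells in the changes of other miRNAs was not tested.

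The let-7 family was called on the same days. Of 6 tested, 5 were lower on day 6 (median -0.76) and 4 higher on day 9 (median 0.49), and on day 11 1 was higher and 1 lower (median -0.15). Scaled on the miRNAs, 2 were higher and none lower on day 11 (median 0.19), and 2 were higher on day 3. The summed level was 1079, 1177 and 1204 scaled RPM on day 1, against 1253, 1255 and 1223 on day 3, then 768, 733 and 723 on day 6, next 2054, 1592 and 1682 on day 9 and finally 1214, 1182 and 1204 on day 11. The day 6 libraries lay below and the day 9 libraries above those of every other day. Mirlet7i, the most abundant, had changes of -0.66 on day 6 and 0.69 on day 9. Lin28a, whose protein blocks let-7 maturation, was represented only by mRNA fragments near the filter, with a log2 change of -1.03 on day 6 and -0.96 on day 11. It was not called on day 3 or day 9, and a link to the let-7 levels was not tested.

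In the miR-99/100 and miR-125 families, which are abundant in differentiated cells, 4 of 6 tested were lower on day 3, 5 on day 6 and 5 on day 11, with medians of -0.53, -1.10 and -0.80. On day 9, 1 was higher and 1 lower. The feature CT025619.1, which holds the miR-125b-1 hairpin, read 241, 266 and 238 scaled RPM on day 1, against 79.4, 62.7 and 59.4 on day 6 and finally 356, 296 and 288 on day 9. It changed by -1.88 (SE 0.11, adjusted p = 1.91e-13) on day 6 and 0.33 (adjusted p = 0.0222) on day 9, and it shares its mature sequence with Mir125b-2. CT009696.2, which holds the miR-100 hairpin, changed by -1.63 on day 6 (SE 0.13, adjusted p = 3.51e-11). Mir99b was lower on every day, at 2639, 2793 and 3619 on day 1 and 1171, 1205 and 1131 on day 11 (-1.35, SE 0.10, adjusted p = 4.23e-12). Scaled on the miRNAs, 3, 5, 2 and 2 of the 6 were lower on the 4 days and none higher.

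Among the abundant miRNAs of adherent and proliferating cells, the pair Mir221 and Mir222, which share the seed GCUACAU and target the cell-cycle inhibitor p27, had the widest swing. Mir222 read 278, 277 and 236 scaled RPM on day 1, against 278, 328 and 258 on day 3, then 155, 114 and 131 on day 6, next 563, 498 and 452 on day 9 and finally 192, 229 and 214 on day 11. It changed by -0.98 (SE 0.11, adjusted p = 5.39e-08) on day 6 and 0.93 (adjusted p = 2.10e-07) on day 9. Mir221 changed by -0.73 (SE 0.10, adjusted p = 7.46e-07) and 0.81 (adjusted p = 2.41e-07) on those days. Over the 10 miRNAs of that list, which also holds Mir21, Mir22 and the miR-23/27/24 clusters, 2 were higher and 4 lower on day 3, none and 4 on day 6, 5 and 2 on day 9, and none and 6 on day 11. Over all miRNAs tested, 31.9% were lower on day 6 and 52.7% on day 11. On the miRNA scaling day 6 had 2 of the 10 lower and day 11 had 4 higher and 2 lower.

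**Figure D3:**
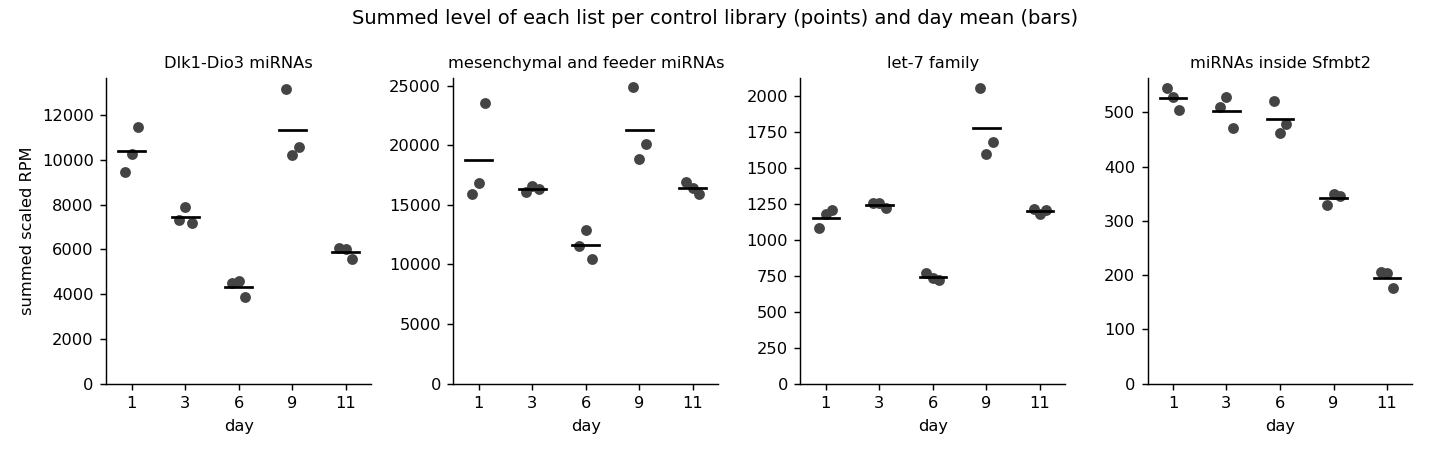
Summed scaled RPM (vertical axis, from 0) of the tested members of 4 lists against day (horizontal axis) in control cells. Points are single libraries and bars the day means. The Dlk1-Dio3, mesenchymal and let-7 sums have their lowest mean on day 6 and their highest on day 9, where the libraries of Dlk1-Dio3 and the mesenchymal list overlap those of day 1, and the sum of the miRNAs inside Sfmbt2 is lowest on day 11.

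The miRNAs inside Sfmbt2, a rodent-specific array of repeated hairpins, changed late. Of 119 annotated features, 8 passed the filter, and 7 of these share a stretch of sequence with other features, so the counts of single hairpins are uncertain. None was called on day 3 or day 6, 5 were lower on day 9 and all 8 on day 11, with medians of 0.07, -0.06, -0.50 and -1.15. Their summed level went from 525 on day 1 to 195 on day 11. Mir467c, the most abundant, had day means of 196, 159, 162, 108 and 47.7 scaled RPM and a day 11 change of -2.04. On the miRNA scaling 7 were lower on day 9 and all 8 on day 11, with a median of -0.81, and all 8 had a falling slope.

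**Figure D4:**
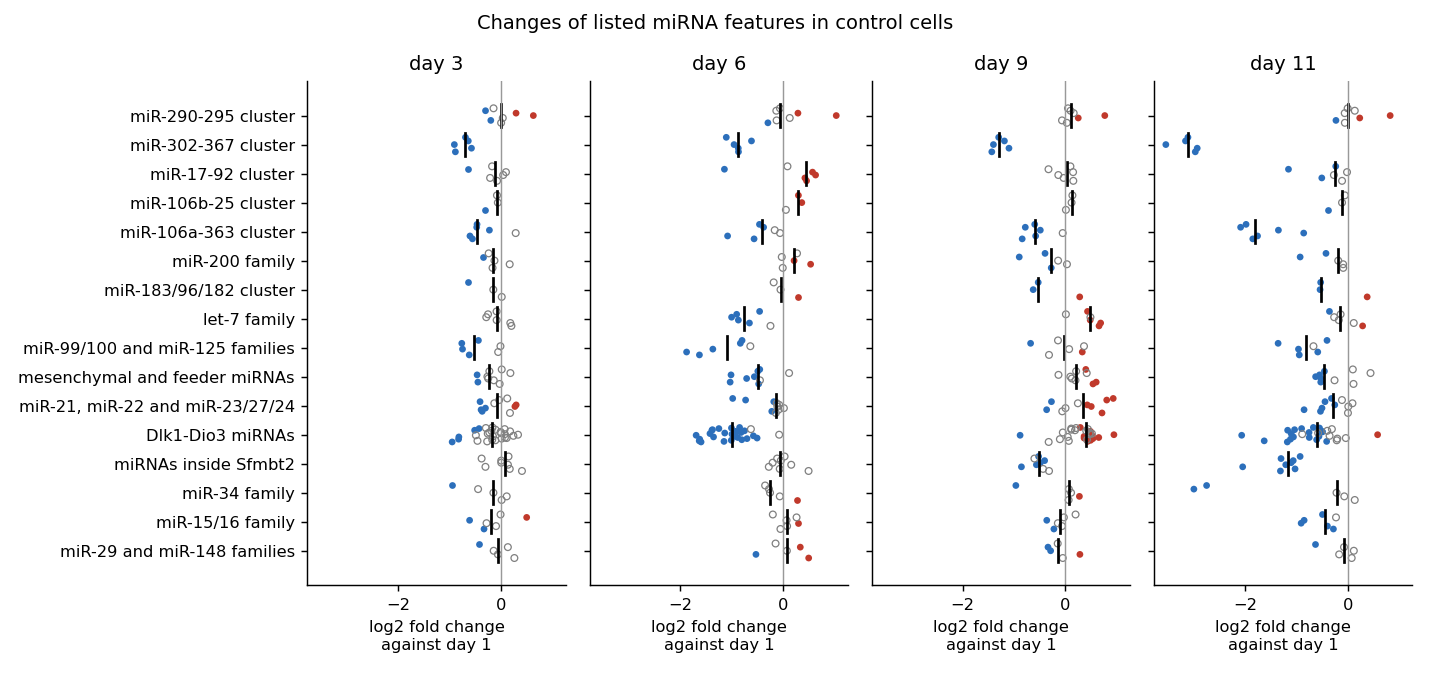
Log2 fold change against day 1 (horizontal axis) of each tested member of 16 miRNA lists (vertical axis) on days 3, 6, 9 and 11 in control cells. Filled red points are features called higher, filled blue points those called lower, open grey points those not called, and black bars the list medians. The miR-302-367 median moves from -0.69 to -3.11, and that of the Dlk1-Dio3 miRNAs lies at -0.996 on day 6 and 0.41 on day 9.

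Mir142, a miRNA of blood cells that ESCs also express, fell in a stepped course and had the falling slope with the smallest p. It read 1943, 2373 and 2098 scaled RPM on day 1, against 1338, 1347 and 1487 on day 3, then 1553, 1458 and 1698 on day 6, next 819, 747 and 868 on day 9 and finally 617, 554 and 636 on day 11. Days 9 and 11 lay below every earlier library. The changes were -0.62, -0.44, -1.39 (SE 0.09, adjusted p = 3.85e-13) and -1.82 (adjusted p = 2.20e-16), and the slope was -0.17 log2 a day (adjusted p = 9.87e-06). Mir150, a lymphocyte miRNA, was lower on day 11 alone (-1.24, SE 0.14, adjusted p = 9.02e-09). The other 4 blood miRNAs stayed at or under 4.51 scaled RPM.

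Mir146, an NF-kB-induced miRNA that shares a stretch of sequence with Mir146b, read 59.3, 88.0 and 108 scaled RPM on day 1 and 9.51, 14.1 and 10.8 on day 11. Its changes were -1.79 (SE 0.23, adjusted p = 4.54e-07) on day 3 and -2.76 (adjusted p = 3.76e-11) on day 11. Mir375, a miRNA of endocrine and gut endoderm cells, read 70.4, 59.4 and 69.1 on day 1, 49.2, 57.6 and 36.5 on day 9 and a mean of 9.59 ± 2.12 (SD, n = 3) on day 11 (-2.68, SE 0.17, adjusted p = 2.81e-13). Mir192, on the same endoderm list, had a difference of -0.04 (SE 0.11, adjusted p = 0.805). In the miR-34 family, Mir449a and Mir449c, which belong to multiciliated cells, were down to between 0.692 and 2.31 scaled RPM on day 11 (-2.75 and -2.99), while Mir34c, a p53 target, did not pass (-0.06, adjusted p = 0.527). Scaled on the miRNAs, 2 of the 5 tested of this family were higher and 2 lower on day 11.

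A smaller set of miRNAs rose. Mir30a read 3465, 3753 and 4206 scaled RPM on day 1, against 6085, 4951 and 5441 on day 3, then 5751, 6596 and 5998 on day 6, next 5795, 5179 and 5859 on day 9 and finally 7056, 6776 and 6838 on day 11. It was above day 1 in every later library, with changes of 0.53, 0.69, 0.56 and 0.86 (SE 0.08, adjusted p = 6.34e-10 on day 11). Mir582, inside Pde4d, read 216, 237 and 213 on day 1 and 370, 463 and 459 on day 11, with changes of 0.81, 0.90, 0.98 and 0.95 (SE 0.09). Its 12 later libraries lay between 370 and 463, above those of day 1. Mir301 rose on all 4 days and was highest on day 6 (1.00, SE 0.09, adjusted p = 1.98e-10).

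Other risers were bound to 1 or a few days. Mir210, the miRNA induced by HIF under low oxygen, read 439, 597 and 376 scaled RPM on day 1, against 305, 373 and 366 on day 3, then 1223, 1192 and 1139 on day 6, next 650, 852 and 752 on day 9 and finally 469, 500 and 437 on day 11. It was lower on day 3 (-0.41, adjusted p = 0.00925), higher on day 6 (1.36, SE 0.12, adjusted p = 3.08e-10) and day 9 (0.69) and back at its day 1 level on day 11 (0.02, adjusted p = 0.909). Mir1199 was also highest on day 6 (1.43, SE 0.14, adjusted p = 1.33e-09). Mir871, from an X-linked cluster of testis miRNAs, was higher on day 11 only, at 73.0, 66.4 and 65.7 against 30.6, 40.5 and 48.8 on day 1 (0.78, SE 0.15, adjusted p = 9.06e-05). Of the predicted hairpins, AL844840.2 rose on all 4 days (0.97, 0.55, 0.41 and 0.82). AC113316.1, inside Cdk8, was higher on days 3, 6 and 9 (1.08, 1.18 and 1.14) and lower on day 11 (-0.34, adjusted p = 0.02).

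Whole RNA classes were compared by their share of the library. Features that overlap are counted in each, so the shares add to over 100%. The miRNA share was 57.5% ± 1.57 (SD, n = 3) on day 1, 56.3% ± 0.326 on day 3, 54.5% ± 0.707 on day 6, 58.2% ± 0.304 on day 9 and 57.1% ± 1.64 on day 11, and the days differed (permutation test of the 15 libraries, adjusted p = 0.0231 over 9 classes). The spliceosomal snRNA share was 0.289%, 0.275% and 0.218% in the day 1 libraries and between 0.468% and 0.616% in all 12 later ones (permutation test, adjusted p = 0.00471). The share of mitochondrial tRNA was 0.527% on day 1, 0.338% on day 3, 0.263% on day 6, 0.436% on day 9 and 0.283% on day 11 (permutation test, adjusted p = 9e-05). The share of misc_RNA, which holds the Y RNAs, was 1.40%, 1.23%, 1.06%, 0.806% and 1.41% on the 5 days (permutation test, adjusted p = 9e-05). The snoRNA share was 17.4% on day 1 and 18.9% to 20.2% on the later days (permutation test, adjusted p = 0.0231). The call for miRNA was lost without day 6 replicate 3 (permutation test, adjusted p = 0.0816) or day 9 replicate 1 (0.0517). The call for snoRNA was lost without day 1 replicate 3 (permutation test, adjusted p = 0.0662), day 11 replicate 1 (0.0566) or day 11 replicate 3 (0.0544). In any pair of days an exact permutation test of 3 against 3 libraries cannot go below p = 0.1.

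**Figure D5:**
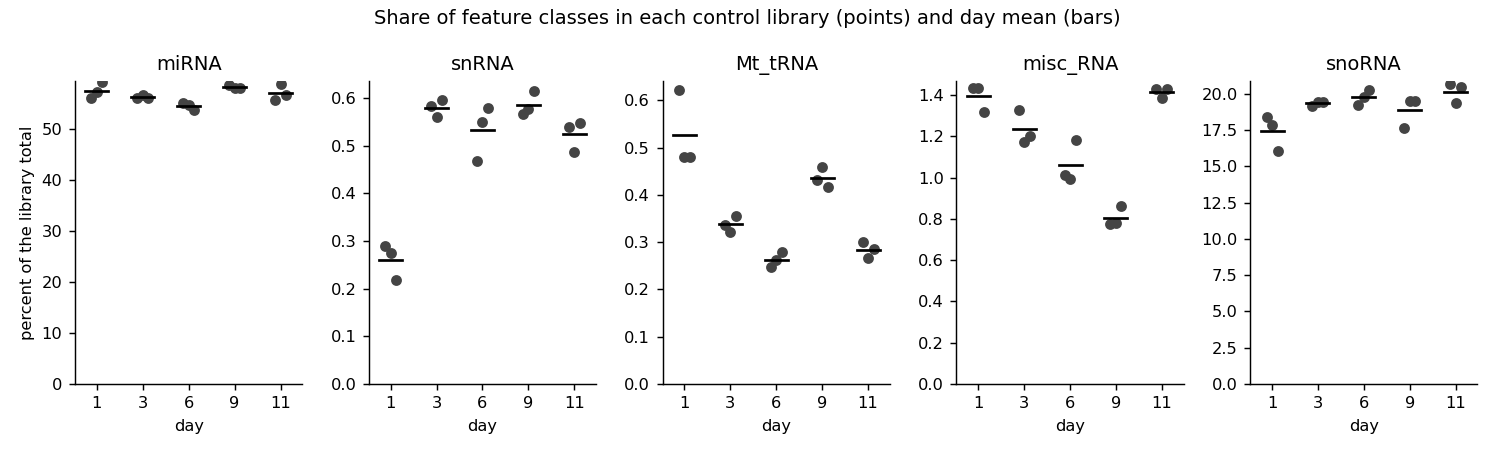
Percent of the library total (vertical axis, from 0) in 5 classes of features against day (horizontal axis) in control cells, with points for single libraries and bars for day means. The snRNA share is 0.218% to 0.289% on day 1 and 0.468% to 0.616% in the later libraries, and the mitochondrial tRNA share is lowest on day 6.

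Fragments of snRNAs and snoRNAs, the RNAs of the spliceosome and of rRNA modification, were mainly higher than on day 1. Of 18 snRNA features tested, 16 were higher and 1 lower on day 3, 15 higher and 2 lower on day 6, 15 higher and 0 lower on day 9, and 12 higher and 2 lower on day 11. Of 227 snoRNA features, 99 were higher and 10 lower on day 3 and 124 higher and 26 lower on day 11, with a median of 0.39. The U5 copy at chr4:116875133-116875248 read 252, 204 and 195 scaled RPM on day 1, against 704, 606 and 729 on day 3, then 550, 645 and 684 on day 6, next 963, 864 and 937 on day 9 and finally 693, 773 and 762 on day 11. The day 1 libraries lay apart from all the others, with a change of 2.09 (SE 0.10, adjusted p = 3.09e-15) on day 9. This U5 shares a stretch of sequence with 8 other features, so the counts of single copies are uncertain. A U4 copy, which shares a stretch of sequence with 26 other features, changed by 2.14 on day 11 (SE 0.18, adjusted p = 6.19e-11). U12, the snRNA of the minor spliceosome, went the other way on day 6, with 209, 164 and 171 on day 1, against 44.8, 44.7 and 45.7 on day 6 and finally 175, 187 and 166 on day 9 (-1.98, SE 0.11, adjusted p = 6.32e-14 on day 6).

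Among the snoRNAs, Snora16a rose from 338, 330 and 279 scaled RPM on day 1 to 1302, 1128 and 1363 on day 11 (2.00, SE 0.09, adjusted p = 1.44e-16). Snora52, inside Rplp2, changed by 1.51 on day 9 and 1.33 on day 11. Snord104 was a day 11 feature, with 3259, 3558 and 3915 on day 1, against 2495, 2472 and 2969 on day 9 and finally 11179, 9998 and 8697 on day 11 (1.47, SE 0.09, adjusted p = 5.00e-14). SCARNA14, inside Tipin, was lower on day 9 (-0.96, SE 0.13, adjusted p = 7.81e-07), and Tipin itself (-0.93) is largely the same reads. The Y_RNA at chr6:47738068-47738179 read 9726, 10193 and 9422 on day 1 and 4217, 4039 and 4669 on day 9 (-1.18, SE 0.08, adjusted p = 5.50e-12).

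Calls of mitochondrial fragments were mainly to the lower side. Of 14 mitochondrial tRNAs, 7 were lower on day 3, 9 on day 6, 5 on day 9 and 10 on day 11, and 2 were higher on day 9. Over all features 13.6%, 23.3%, 15.7% and 28.2% were lower on those days. The medians of the mitochondrial tRNAs were -0.32, -0.51, 0.03 and -0.54, so on day 9 they were not lower as a class. mt-Tm, the methionine tRNA, read 1674, 1339 and 1318 scaled RPM on day 1, against 533, 528 and 624 on day 3, then 339, 347 and 383 on day 6, next 986, 1114 and 969 on day 9 and finally 457, 452 and 478 on day 11. Its changes were -1.36, -2.01 (SE 0.09, adjusted p = 1.68e-15), -0.49 and -1.63. mt-Co1, a subunit of cytochrome c oxidase, changed by -1.59 on day 3, -2.03 on day 6, -0.26 on day 9 (adjusted p = 0.0873) and -1.09 on day 11.

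Short fragments within protein-coding genes stand for pieces of mRNA or for unlisted small RNAs, not for mRNA levels. Bai2, a brain adhesion receptor, read 32.4, 33.0 and 10.7 scaled RPM on day 1 and 81.5, 97.3 and 122 on day 11 (2.08, SE 0.25, adjusted p = 4.19e-08). Idh2, the mitochondrial isocitrate dehydrogenase, changed by 1.83 on day 3 and 2.06 on day 11, and the processed transcript Gm11205 by 1.77 on day 6. Ep400, whose span holds the RefSeq hairpin Mir7026, had a rising slope, with changes of 0.71, 0.86, 0.99 and 1.35. Lower features were Lancl2, at 205, 209 and 218 on day 1 and 57.1, 76.0 and 60.8 on day 3 (-1.70, SE 0.11, adjusted p = 2.12e-12), and on day 11 Ror1 (-2.60), Prosapip1 (-2.26), Ngdn (-2.19) and Gm10369, inside Limk1 (-2.18). Prosapip1 was lower on days 3 and 6 as well, with a higher level on day 9 in between (0.39, adjusted p = 0.0305). The genes of miRNA processing were seen as fragments near the filter. Of 5 tested, Dgcr8 was higher on day 6 (0.66), Lin28a was lower on days 6 and 11, Drosha was lower on day 9 (-0.68), and Dicer1 and Eif2c2 were called on no day.

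The Dnmt1 KO libraries of the same days, also 15, form the other arm of the study. Small RNA libraries do not measure Dnmt1 mRNA, so the deletion itself was not read from them. The paper reports miRNAs of the imprinted Dlk and Xlr3 loci as the exception among miRNAs whose expression did not depend on DNA methylation. The Dlk1-Dio3 values of the KO libraries are given at the end of this paragraph. The change from day 1 differed between the arms for 87 of 288 miRNAs on day 3 (30.2%, with 25.7% higher and 4.51% lower in KO than in control), for 136 on day 6 (47.2%, 30.6% higher and 16.7% lower), for 145 on day 9 (50.3%, 40.6% higher and 9.72% lower) and for 104 on day 11 (36.1%, 33.3% higher and 2.78% lower). Over all features the split of these differences moved under library totals on days 3, 9 and 11, as given below. The control changes enter each difference, and on the miRNA scaling the control calls of day 11 were 73 higher and 73 lower, against 29 and 137. The split of the miRNA differences under that scaling is not given here. The miR-302-367 medians were -1.13, -2.52, -2.57 and -3.07 in the KO libraries, with the fall larger than in control for all 5 hairpins on days 6 and 9 and for none on day 11. The miR-106a-363 medians were -0.69, -1.45, -1.63 and -2.02, with 5 of 6 hairpins lower than in control by the test of the difference on days 6 and 9 and 1 on day 11. The Dlk1-Dio3 medians were 0.40, 2.15, 3.3 and 3.3 in the KO libraries, and the change differed from control for all 27 on days 6, 9 and 11. The miRNAs inside Sfmbt2 had KO medians of 0.42, 0.17, 0.03 and -0.30, and on day 11 the change differed for 6 of the 8.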

How the data were processed

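Small RNA was sequenced from control and Dnmt1 KO ESCs over a time course. The authors trimmed the reads (Trim Galore 0.3.5 in the submitters' processing notes), mapped them to NCBIM37 with Bowtie2 (2.2.9) and quantified features in SeqMonk, and the deposited table holds RPKM per annotated feature and library. The use of strand and the handling of reads that map more than once are not given in the sources used here. RPKM was multiplied by the feature span in kb to give RPM, and each library's total was read back from its smallest step. At that step all of the low values, the only ones checked, were whole reads within 0.05, and higher values were rounded. The depth per library was 870481 to 5668458 reads.

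From there, log2(RPM + 1) was fitted with limma 3.58.1 (R 4.3.3, empirical Bayes with an intensity trend), with 1 mean per day over the 15 control libraries and scaling by trimmed mean of M values (trims of 30% and 5%). Features with at least 10 RPM in 3 or more libraries were tested, and p-values were adjusted by Benjamini-Hochberg over all 1987. The 4 contrasts with day 1 share the day 1 libraries. A moderated F test over the days, a slope per day and, over 30 libraries, the difference between arms used the same settings. Class shares were tested by 100000 permutations of the libraries over the days, whose smallest possible p is 1e-05. Features named are, per day and direction, the 5 miRNAs and 3 other features with the largest change among those called, not overlapping day 1 and at 50 RPM or more, with the smallest p of the F test and slope, and members of the lists. The members and lists were chosen with earlier results of these data known.

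The alternatives were other scalings, pseudocounts of 0.5 and 5, other filters, voom on the recovered reads, thinning to 870481 reads, a replicate block, the 15 shallower libraries of the same names with an R1 suffix, and leaving out each library. The R1 libraries held 0.308 to 0.328 of the reads of their namesakes and were not counted as replicates. RefSeq hairpins were placed by exact sequence, which named 214 of the 260 miRNA features. The fit was tested on simulated data.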

Additional observations from a re-analysis of the deposited data

Results flagged for a closer look

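For 45 of the 64 named day results the change from day 1 differed between the Dnmt1 KO and the control libraries in the limma test of the difference (adjusted p between 1.06e-23 and 0.0486 over all features tested). Over all 2252 features of that fit, 342, 613, 542 and 326 differed on days 3, 6, 9 and 11. The named features were chosen for large changes in the control libraries, whose values enter the difference, so the choice favours a smaller change in KO cells. Values are KO change minus control change in log2, and the KO change is given where it shows the direction.

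On day 6 the sharpest differences were in the Dlk1-Dio3 region: AC121784.1 differed by 4.22, Mir127 by 3.57 and Mir134 by 3.47, and all 3 rose in the KO cells (2.62, 1.90 and 2.03) while they fell in control cells. On day 3 Mir127 already differed by 1.07. The miR-302 hairpins fell further in KO cells, with differences of -0.59 for Mir302b on day 3 and -1.47 for Mir302b, -1.26 for Mir302a and -1.33 for Mir302d on day 9.

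Mir142, lower in control cells on day 9, was at 0.40 in KO cells, a difference of 1.85. Mir871 was higher on day 11 in both arms and more so in KO cells (3.99, a difference of 3.25). Mir221 and Mir222 on day 9 differed by 0.79 and 0.62, with the larger rise in KO cells. Mir375 on day 11 differed by 1.04 and Mir99b on day 3 by 0.79. On day 6 the miR-125b-1 hairpin CT025619.1 differed by 1.37 and the miR-100 hairpin CT009696.2 by 1.06, with the smaller fall in KO cells.

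Some features that rose in control cells had differences below 0, the direction that the choice favours. Mir291b differed by -0.47 on day 6 and -0.55 on day 9, and Mir210 by -0.66 on day 6. Mir582 differed by -0.43, -0.96 and -0.89 on days 3, 9 and 11, AC113316.1 by -1.50 and -0.95 on days 3 and 6, and AL844840.2 by -1.12 and -0.94 on days 3 and 11.

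Among other RNAs, the U5 copies differed by -1.13 on day 3, by -1.37 on day 6 and by -1.78, -1.19 and -1.58 on day 9. U4 differed by -0.90 on day 11 and the Y_RNA by -0.35 on day 9. SCARNA14 and Tipin, which share reads, differed by 0.74 and 0.72 on day 9. For mt-Co1 the differences were 0.54 on day 3 and 1.27 on day 6, and for mt-Tm 0.63 on day 6. Bai2 differed by -2.12, -2.14 and -1.59 on days 3, 6 and 11, Idh2 by -0.83 and Lancl2 by 0.92 on day 3, and Ror1 by 0.86 and Ngdn by 1.01 on day 11.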

How the results depend on the processing

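Alternative scalings, pseudocounts, filters and voom kept the counts of features called per day within 1.5 times, except as follows, and no named result reversed under any alternative. With the miRNAs alone tested and scaled, 87, 147, 114 and 146 were called on days 3, 6, 9 and 11, 225 among all days, 62 for the slope and 57, 152, 150 and 145 for the differences between arms, out of fewer features. With every library thinned to the shallowest, 343, 520 and 412 were called on days 3, 6 and 9 and 202 for the slope, and the share of higher calls on day 6 was 58.7% against 47.1%. In the shallower R1 libraries 290, 389, 298 and 530 were called, 648 among all days and 131 for the slope, with 75.9% and 81.2% of the calls of days 3 and 9 higher against 52.1% and 55.5%. The U4 copy on day 11 lost its call there. With no filter the slope was called in 178, and 86.8%, 72.3%, 89.6% and 66.3% of the calls of days 3, 6, 9 and 11 were higher, against 52.1%, 47.1%, 55.5% and 44.8%. With library totals alone 32.9%, 36.5% and 33.5% of the differences between arms on days 3, 9 and 11 were higher in KO, against 48.8%, 58.5% and 62.6%. Leaving out 1 library gave 451 to 577, 752 to 860, 553 to 731 and 876 to 1013 calls on the 4 days, 1329 to 1465 among all days and 210 to 380 for the slope, with 210 without day 1 replicate 3, and 235 to 383, 537 to 684, 423 to 591 and 268 to 385 for the differences between arms. As the largest minus the smallest day mean in percentage points, the class shares gave 3.36 to 4.06 for miRNA, 2.03 to 3.2 for snoRNA and 1.03 to 1.18 for processed_transcript, whose call was lost in most of these fits. Over features that overlap no other, processed_transcript differed by 0.00653 (permutation test, adjusted p = 0.198) and lincRNA by 0.0107 (permutation test, adjusted p = 0.00264), and in the R1 libraries processed_transcript by 1.14 (permutation test, adjusted p = 0.0695). The causes were not tested.

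The replicate numbers did not pair the libraries: residuals of same-numbered libraries of different days correlated between -0.05 and 0.12 (median -0.006), and 7 of 15 libraries were closest to their own number. With a replicate block 551, 860, 692 and 1009 features were called on the 4 days, 548, 852, 688 and 1003 of them shared with the fit without it, and 287 for the slope. Depth limits day 1 replicate 3 most, where 10 RPM is 8.70 reads.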
